A study of Mus musculus with 16 samples.

Results

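The 78 genes described here carry the names of mitochondrial ribosomal proteins, with 49 genes of the Mrpl series and 29 of the Mrps series. They were chosen by name, as every gene symbol that starts with Mrpl or Mrps and a digit, and they are 78 of the 16118 genes in the deposited table. The 2 symbols marked as pseudogenes, Mrpl23-ps1 and Mrpl48-ps, were left out. The mitochondrial ribosome, or mitoribosome, is made of a large and a small subunit and translates the few proteins that mitochondrial DNA encodes, all of them components of the respiratory chain and ATP synthase. Its RNAs are transcribed inside the organelle, but each of its proteins is encoded in the nucleus, made in the cytosol and imported. Part of these proteins descend from bacterial ribosomal proteins and the rest were gained after the bacterial ancestor became an organelle. The heart depends on the respiratory chain for most of the ATP used in contraction.

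RNA of the atria and of the ventricles of 8 male littermates, all adult, was sequenced in 16 libraries, to ask what loss of the homeodomain transcription factors Meis1 and Meis2 changes in the adult heart. The 4 idKO mice were Meis1 flox/flox and Meis2 flox/flox and carried 1 copy (tg/wt) of alpha-MHC-MerCreMer, a Cre recombinase that tamoxifen activates and that the alpha-MHC promoter expresses in cardiomyocytes. The 4 control mice carried the same floxed alleles without the transgene (wt/wt), so the groups differ in the Cre protein as well as in the deletion. Hearts were collected 2 weeks after tamoxifen, with the outflow tract removed, and the 4 groups were idKO atria, control atria, idKO ventricles and control ventricles, with 4 mice in each. Each library was 1 chamber of 1 mouse, so the spread between libraries is a spread between animals.

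The libraries held 13.1 M to 21.8 M reads in genes. Levels are given as the authors' normalised read counts, which are reads divided by a library size, in M (mega) reads, that the authors estimated. That estimated size was 0.958 and 0.947 of the reads in idKO and control atria, and 0.687 and 0.639 of the reads in idKO and control ventricles. Transcripts of mitochondrial DNA took 16.3% to 18.2% of the reads in atria and 28.2% to 31.8% in ventricles. Meis2 averaged 8.82 ± 0.848 in idKO ventricles and 26.8 ± 4.24 in control ventricles (SD, n = 4 each), and it was lower in idKO ventricles (limma adjusted p = 1.97e-05). In atria Meis2 averaged 17.7 in idKO and 20.0 in control mice, and the difference did not pass the test (limma adjusted p = 0.966). Meis1 did not pass in either chamber, with 23.1 in idKO and 27.3 in control ventricles and 29.7 in idKO and 28.3 in control atria. Exons of a floxed gene outside the deleted part still give reads, so a level near that of control mice does not show which cells kept the gene. Reads of Esr1, part of which is built into the transgene, averaged 186 in idKO atria, against 5.02 in control atria, and 3099 in idKO ventricles, against 0.967 in control ventricles. All 10 cardiomyocyte markers examined were detected in each group, with a summed level of 58417 to 70002 in atria and 90638 to 107502 in ventricles.

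By structure rather than name, 51 members belong to the large subunit and 26 to the small one. Mrps18a and Mrps30 carry small-subunit names but sit in the large subunit, and Mrps36 is a component of the oxoglutarate dehydrogenase complex that does not belong to the ribosome. A bacterial counterpart is known for 48 members and none for 29, Mrps36 not counted. The genes lie on 17 chromosomes, with 11 on chromosome 11 and 8 on chromosome 17. All 78 reached a normalised count of 1 in at least 4 libraries of each comparison and were tested.

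Levels are comparable between genes only per length. Per kilobase of annotated exon, over all 16 libraries, the highest normalised count belonged to Mrpl12, a subunit of the flexible stalk that recruits translation factors, at 122. Mrps21 followed at 117, Mrps23 at 94.4, Mrpl34 at 81.5 and Mrpl18 at 73.6. The order differed by chamber. In idKO atria Mrps21 came before Mrpl12, at 90.5 and 81.2, and Mrps6 came next after these 2 in both atrial groups, at 63.9 in idKO and 65.1 in control atria, while it stood 16th over all libraries. The lowest were Mrpl32 at 5.79, Mrpl17 at 5.74, Mrps22 at 4.81, Mrps10 at 2.98 and Mrpl23 at 1.08. Annotated exons of all isoforms count in that length. Mrpl23, a protein at the exit of the peptide tunnel, has an expressed pseudogene copy, Mrpl23-ps1, which averaged 33.4, 31.6, 44.8 and 50.9 normalised counts in idKO atria, control atria, idKO ventricles and control ventricles. How reads were divided between the 2 copies is not known, and the values of Mrpl23 are uncertain for that reason.

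For 5 of the members on which the comparisons below turn, the 300 bases around the RefSeq transcription start (GRCm38.p6) are shown, because the genes move together between chambers and the start region is where shared sequence could be compared. Capitals mark a match on either strand to the motif of nuclear respiratory factor 1 (NRF1), which reads GCGC, any base, then TGCGC, to CCGGAAG, an ETS-family motif, or to AAGATGG, a motif of YY1. The last bases of the ETS motif are the first of the YY1 motif, so 1 stretch can hold both. Mrps6 (chr16:92058086-92058385, + strand) is the 1 member called higher in atria as normalised counts, and its window held none of the 3 motifs. Mrpl14 (chr17:45686099-45686398, + strand) had the largest difference in the other direction in control mice, Mrpl39 (chr16:84735195-84735494, − strand) the largest fall in idKO ventricles, and Mrpl12 (chr11:120484387-120484686, + strand) the highest level per kilobase. Mrpl2 (first of 3 overlapping windows, chr17:46645971-46646270, + strand) is 1 of the 3 members called in ventricles. The windows of Mrpl14, Mrpl39 and Mrpl12 each held 1 NRF1 match, and none of the 3 windows of Mrpl2 held any of the 3 motifs. Other members also held none of the 3 motifs. Of these, Mrpl1, Mrpl28, Mrpl46 and Mrpl55 are examples called lower in control atria, and Mrpl23 did not pass between control chambers. Mrpl52, with 2 ETS matches and 1 YY1 match, and Mrpl48, with 1 ETS match, did not pass between control chambers. A link between motifs and the chamber difference was not tested.

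Mrps6: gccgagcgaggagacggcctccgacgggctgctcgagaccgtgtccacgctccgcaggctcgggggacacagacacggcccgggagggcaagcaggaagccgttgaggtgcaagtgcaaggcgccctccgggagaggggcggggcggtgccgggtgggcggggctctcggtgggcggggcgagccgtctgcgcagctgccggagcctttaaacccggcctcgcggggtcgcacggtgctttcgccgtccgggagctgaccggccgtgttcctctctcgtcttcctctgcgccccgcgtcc

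Mrpl14: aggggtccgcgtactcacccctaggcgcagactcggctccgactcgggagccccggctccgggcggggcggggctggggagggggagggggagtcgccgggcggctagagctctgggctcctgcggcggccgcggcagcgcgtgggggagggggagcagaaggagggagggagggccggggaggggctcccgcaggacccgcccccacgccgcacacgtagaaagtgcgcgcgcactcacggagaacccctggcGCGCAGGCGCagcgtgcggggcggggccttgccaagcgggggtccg

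Mrpl39: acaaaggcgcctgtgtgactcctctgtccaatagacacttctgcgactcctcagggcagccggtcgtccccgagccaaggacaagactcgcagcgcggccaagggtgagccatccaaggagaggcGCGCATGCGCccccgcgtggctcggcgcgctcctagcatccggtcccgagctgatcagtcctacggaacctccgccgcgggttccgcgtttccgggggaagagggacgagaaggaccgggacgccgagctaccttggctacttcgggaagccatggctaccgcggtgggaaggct

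Mrpl2: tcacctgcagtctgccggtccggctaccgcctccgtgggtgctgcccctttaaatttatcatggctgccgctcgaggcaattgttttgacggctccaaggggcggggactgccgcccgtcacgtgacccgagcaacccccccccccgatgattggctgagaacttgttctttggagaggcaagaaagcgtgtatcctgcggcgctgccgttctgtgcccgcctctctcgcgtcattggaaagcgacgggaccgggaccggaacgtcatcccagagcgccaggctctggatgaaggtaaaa

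Mrpl12: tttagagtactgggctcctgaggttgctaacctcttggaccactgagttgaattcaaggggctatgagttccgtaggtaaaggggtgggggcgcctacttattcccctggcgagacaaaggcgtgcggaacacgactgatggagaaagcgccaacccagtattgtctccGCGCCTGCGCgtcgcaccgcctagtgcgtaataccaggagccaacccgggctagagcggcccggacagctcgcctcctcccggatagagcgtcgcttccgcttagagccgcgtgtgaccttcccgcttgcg

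Of the 69 members with a promoter window in the RefSeq table, 13 (18.8%) held the NRF1 motif, against 10.5% of the 11526 genes of the deposited table that have such a window. The ETS motif was in 26 members (37.7%), against 18.2% of all genes. The YY1 motif was in 13 members (18.8%), against 7.83% of all genes. At least 1 of the 3 was in 43 members (62.3%), against 31.7% of all genes. CCAAT was in 39.1% of members and 42.3% of all genes, CACGTG in 7.25% and 11.3%, and TCAAGGTCA, a motif of the oestrogen-related receptors, in 0 members and 0.33% of all genes. Another feature shared by members is a divergent neighbour. For 18 of 78 members (23.1%) a gene on the other strand starts upstream within 1000 bases without overlapping the member, against 9.28% of the 14257 protein-coding genes of the table. Among these pairs, Mrps12 and Sars2, the mitochondrial seryl-tRNA synthetase, start 172 bases apart, and Mrps27 and Ptcd2 start 81 bases apart. Matches and neighbours are given as a description of the sequence.

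The comparison of chambers asked how the genes differ between atrium and ventricle of the same mice. In control mice the transcripts of almost the whole mitoribosome were lower in atria than in ventricles. Of 78 members, 74 were lower and 1 was higher in control atria (limma with Benjamini-Hochberg adjustment, adjusted p under 0.05 over all 15075 genes tested), against 28.4% of all genes lower and 28.0% higher. The median log2 fold change of the members, atrium over ventricle, was -0.85, against 0.02 over all genes tested, and the middle 50% of members lay between -1.01 and -0.69. In 73 members all 4 control atria lay below all 4 control ventricles, against 25.6% of all genes. Signs were also one-sided, with 2 members above 0 and 76 below, against 51.4% and 48.6% of all genes. Fold changes here and below are on the scale of log2(normalised count + 1), which understates the change of low genes. In RNA from whole chambers, fewer cells of a type and less RNA per cell cannot be told apart.

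**Figure D1:**
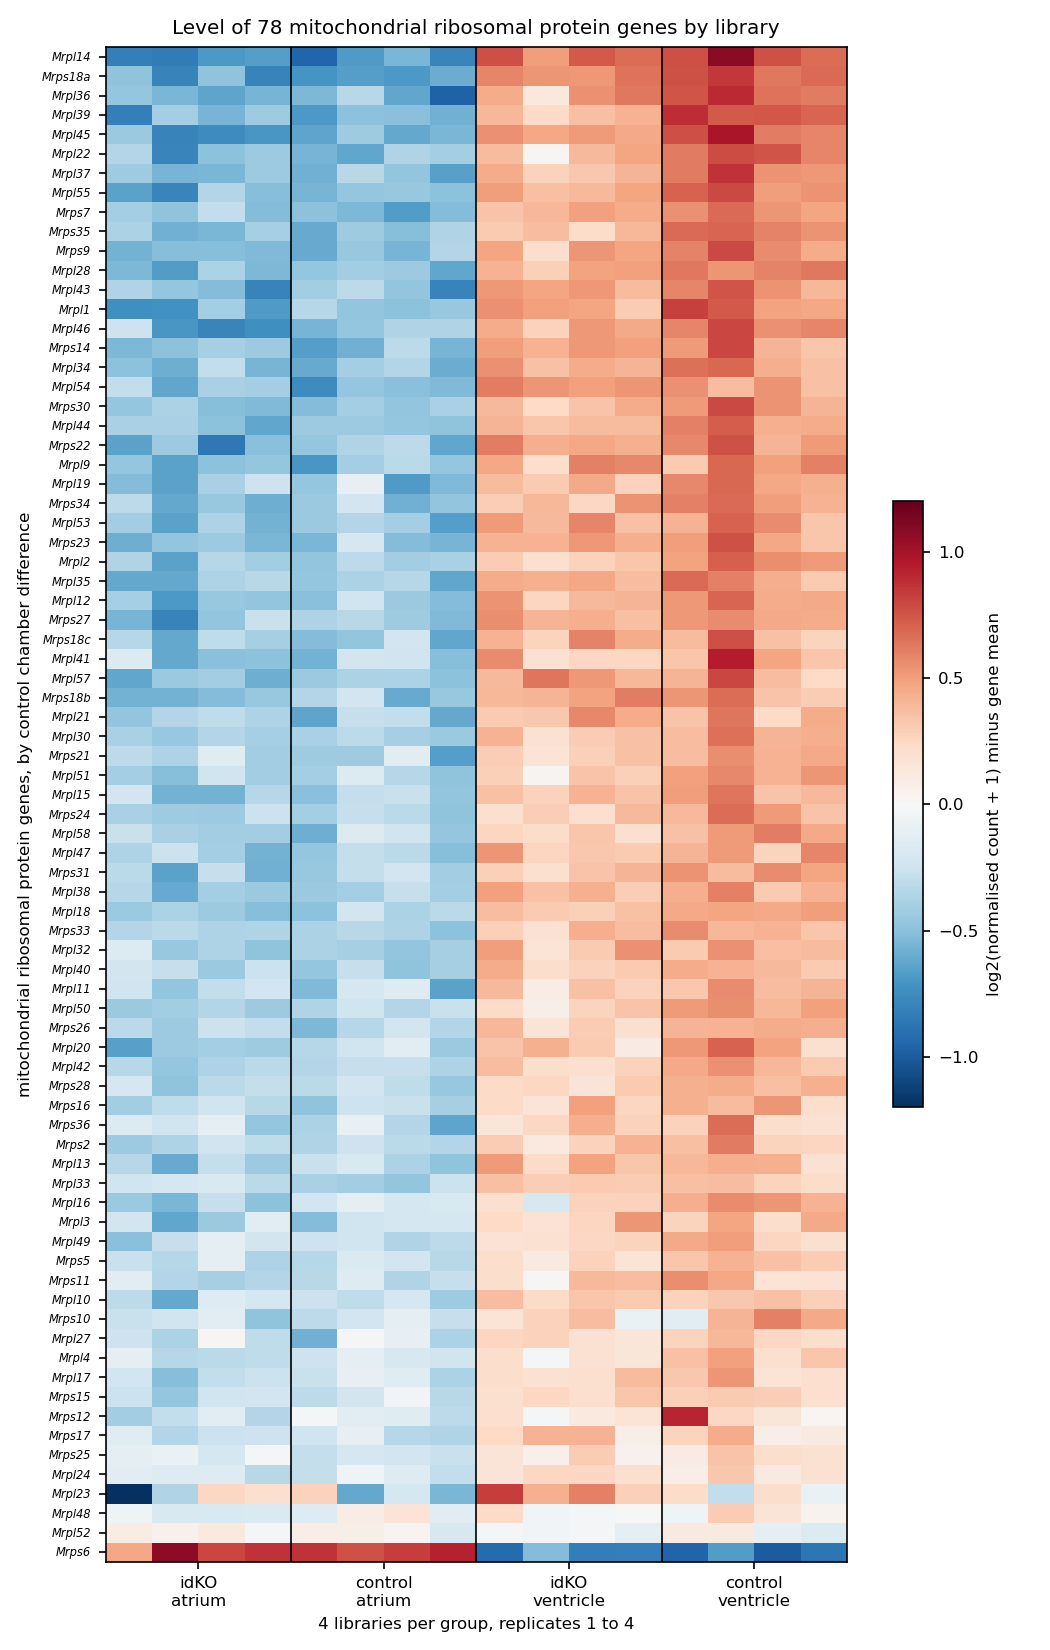
Level of the 78 members in each of 16 libraries, as log2(normalised count + 1) minus the mean of the gene over all libraries; rows are genes sorted by the atrium over ventricle difference in control mice, columns are idKO atria, control atria, idKO ventricles and control ventricles, 4 libraries each, replicates 1 to 4. Blue (below the mean of the gene) dominates the atrial columns and red the ventricular ones except in the lowest rows, where Mrpl23 is mixed, Mrps6 has the opposite colours and Mrpl52 and Mrpl48 are nearly white.

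Large-subunit members gave the largest falls. Mrpl14, a conserved protein of the face that joins the small subunit, measured 20.9, 20.6, 22.9 and 23.4 normalised counts in idKO atria, 19.0, 23.1, 25.4 and 21.2 in control atria, 64.9, 53.6, 63.3 and 60.4 in idKO ventricles and 64.7, 80.8, 64.3 and 60.3 in control ventricles. Every atrial library lay below every ventricular one. The log2 fold change of Mrpl14 was -1.42 ± 0.10 (SE) in idKO mice (limma adjusted p = 5.43e-10) and -1.56 ± 0.10 in control mice (limma adjusted p = 1.21e-10). Mrpl14 shares 106 exon bases with Tmem63b on the opposite strand. Whether counting used strand is not given in the sources used here, so their reads cannot be told apart over that stretch. Tmem63b averaged 53.0 in idKO atria, 54.1 in control atria, 136 in idKO ventricles and 153 in control ventricles. How much of the signal of Mrpl14 came from shared bases was not tested.

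Mrps18a, 1 of 3 mammalian proteins related to bacterial S18 and the only one placed in the large subunit, measured 28.6, 22.8, 28.7 and 22.8 in idKO atria, 24.4, 25.2, 24.7 and 26.4 in control atria, 61.0, 58.9, 58.4 and 64.2 in idKO ventricles and 69.5, 73.5, 63.3 and 65.5 in control ventricles. The atrial and ventricular libraries did not overlap in either genotype. Its log2 fold change was -1.21 ± 0.08 in idKO mice (limma adjusted p = 3.42e-10) and -1.39 ± 0.08 in control mice (limma adjusted p = 4.22e-11). The small-subunit genes of the same family, Mrps18b and Mrps18c, were lower in control atria by smaller amounts, at -0.87 ± 0.10 and -0.91 ± 0.12.

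Mrpl39, a large-subunit protein without a bacterial counterpart, differed by -0.91 ± 0.08 in idKO and -1.33 ± 0.08 in control mice. Mrpl45, which anchors the ribosome to the inner membrane beside the tunnel exit, differed by -1.17 ± 0.09 in idKO and -1.29 ± 0.09 in control mice. Mrpl36, a small conserved protein that shares 30 exon bases with Ndufs6 on the opposite strand, differed by -0.99 ± 0.12 in idKO and -1.35 ± 0.12 in control mice. For Mrpl22, which lines the exit tunnel, the values were -0.84 ± 0.11 in idKO and -1.17 ± 0.11 in control mice. In control mice Mrpl37 differed by -1.15 ± 0.08 and Mrpl55 by -1.13 ± 0.09. Mrpl14, Mrps18a and the 6 members of this paragraph had the 8 largest falls in control mice, and each passed the test in both genotypes.

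By role the medians lay close together. The 51 large-subunit members had a median log2 fold change of -0.86 in control mice, with 48 lower in atria, and the 26 small-subunit members a median of -0.83, with 25 lower and Mrps6 higher. Members with a bacterial counterpart had a median of -0.83 (46 of 48 lower) and those without one a median of -0.90 (27 of 29 lower). The 4 stalk proteins, Mrpl1, Mrpl10, Mrpl11 and Mrpl12, were all lower, with a median of -0.88, as were 5 of 6 members of the peptide exit tunnel and 5 of 6 of the central protuberance. The 4 members whose human counterparts are known as cardiomyopathy genes, Mrpl3, Mrpl44, Mrps14 and Mrps22, were lower by 0.65 to 1.04 on the log2 scale. Among the small-subunit genes with the smallest p, Mrps7, a protein of the head, differed by -1.11 ± 0.07 and Mrps35 by -1.10 ± 0.07. Mrps2 differed by -0.70 ± 0.09, and Mrps12, a protein of the decoding centre, by -0.48 ± 0.14. Mrps36, which is no ribosomal protein, differed by -0.70 ± 0.12.

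Mrps6 (ENSMUSG00000039680, chr16:92058270-92112227, + strand), the counterpart of bacterial S6 in the platform of the small subunit, went the other way. It measured 76.4, 117, 96.5 and 101 normalised counts in idKO atria, 101, 94.1, 98.5 and 105 in control atria, 28.6, 38.1, 30.6 and 30.7 in idKO ventricles and 27.8, 34.4, 27.1 and 29.9 in control ventricles. Each atrial library lay above each ventricular one, so the atrium was the higher chamber in all 8 mice. Such a separation was found in 22.7% of all genes in idKO mice and 24.6% in control mice. The log2 fold change was 1.58 ± 0.11 in idKO mice (limma adjusted p = 6.27e-10) and 1.72 ± 0.11 in control mice (limma adjusted p = 1.6e-10). Mrps6 shares 159 exon bases on the same strand with Slc5a3, a sodium and myo-inositol cotransporter, which was looked up after the values of Mrps6 were seen. Slc5a3 averaged 24.3 ± 6.31 in idKO atria, 18.6 ± 6.97 in control atria, 4.18 ± 0.308 in idKO ventricles and 4.52 ± 1.75 in control ventricles (SD, n = 4 each), and it was higher in atria by 2.25 ± 0.23 in idKO and 1.82 ± 0.23 in control mice on the log2 scale. How much of the signal of Mrps6 came from shared bases was not tested.

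**Figure D2:**
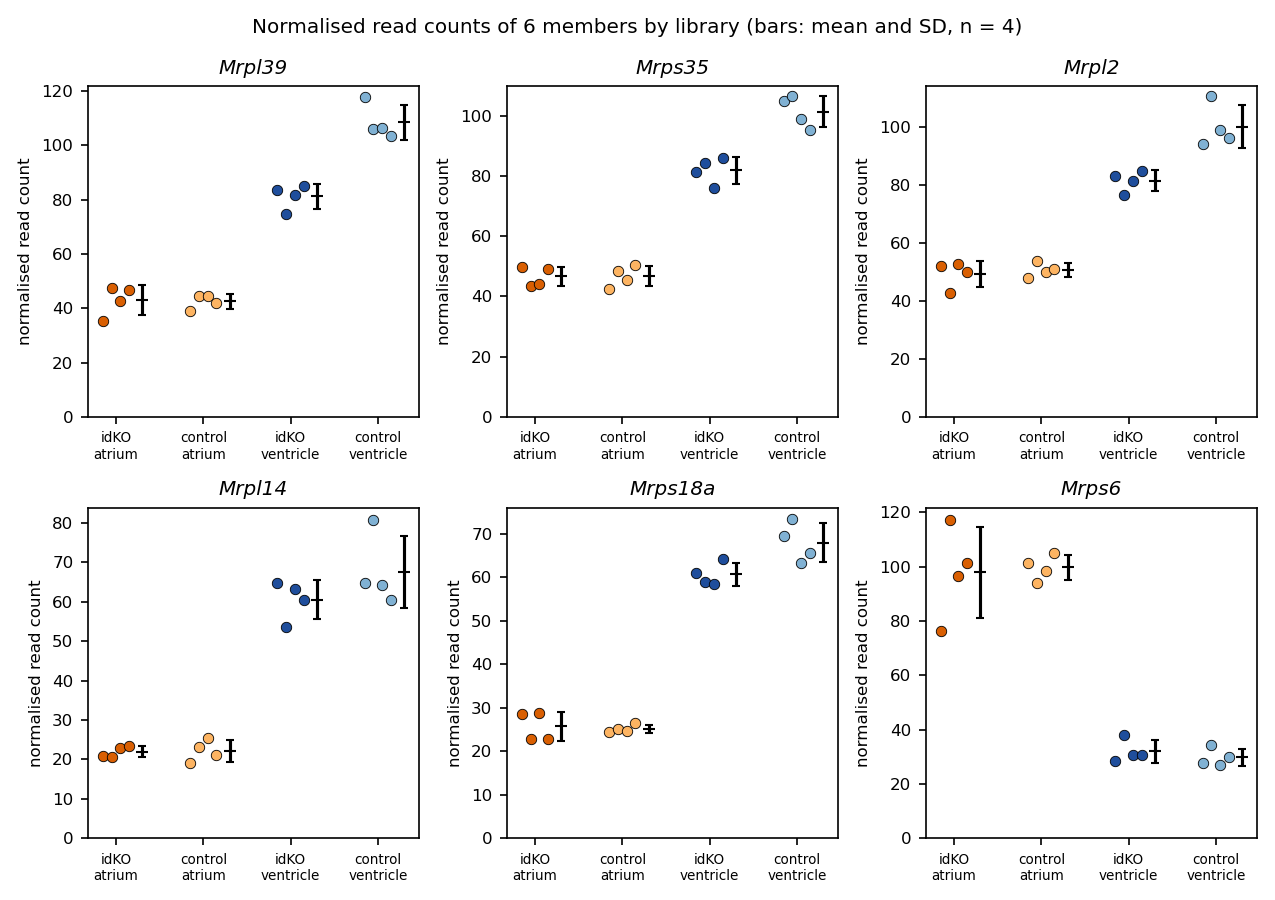
Normalised read counts of Mrpl39, Mrps35, Mrpl2, Mrpl14, Mrps18a and Mrps6 in each library; points are libraries of idKO atria, control atria, idKO ventricles and control ventricles, and bars give the mean and SD (n = 4). In Mrpl39, Mrps35 and Mrpl2 the idKO ventricles lie below the control ventricles, in Mrpl14 and Mrps18a both atrial groups lie below both ventricular ones, and in Mrps6 they lie above them.

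In control mice 3 members did not pass the test between chambers. Mrpl52, a large-subunit protein without a bacterial counterpart, had normalised counts of 28.3, 28.3, 27.4 and 23.3 in the atria of control mice, where the ventricles had 29.0, 29.0, 24.7 and 23.8. Its libraries overlapped, with a log2 fold change of 0.01 ± 0.08 (limma adjusted p = 0.921). Mrpl48, in the central protuberance, differed by -0.12 ± 0.09 (limma adjusted p = 0.248). Reads of its pseudogene copy Mrpl48-ps averaged 1.92 in control atria and 2.76 in control ventricles, but they differed by mouse. They measured 4.14, 0.03, 0.04 and 3.47 in control atria and 6.33, 0.04, 0.05 and 4.63 in control ventricles. Mrpl48 also shares 708 exon bases with Rab6a on the opposite strand, which averaged 126 in control atria and 111 in control ventricles. Mrpl23 differed by -0.29 ± 0.27 (limma adjusted p = 0.379), while its pseudogene Mrpl23-ps1 was lower in control atria by 0.67 on the log2 scale. Mrps10 passed the test at -0.57 ± 0.13 although its control libraries overlapped.

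In idKO mice the pattern was the same in direction. Of 78 members, 75 were lower and Mrps6 was higher in idKO atria than in idKO ventricles (limma adjusted p under 0.05), against 26.7% of all genes lower and 26.5% higher. The median log2 fold change was -0.77, against 0.02 over all genes tested. In 76 members all 4 idKO atria lay below all 4 idKO ventricles, against 23.9% of all genes. Again 2 members were above 0 and 76 below, against 51.8% and 48.2% of all genes. The largest falls were those of Mrpl14, Mrps18a and Mrpl45, given above, then Mrps22 at -1.10 ± 0.11, Mrpl1 at -1.09 ± 0.09, Mrpl46 at -1.05 ± 0.11, Mrpl43 at -1.01 ± 0.11 and Mrpl57 at -1.01 ± 0.11. Mrpl28, among the members with the smallest p, differed by -0.95 ± 0.07. Mrpl23 passed the test here at -0.81 ± 0.27 (limma adjusted p = 0.0152), with 1.60, 3.64, 6.09 and 5.80 normalised counts in idKO atria, against 9.60, 6.99, 8.06 and 6.24 in idKO ventricles. The libraries did not overlap, with the highest atrium close to the lowest ventricle, and on the 2 share scales described below Mrpl23 did not pass (limma adjusted p = 0.186 and 0.0677). Mrpl48 and Mrpl52 did not pass, at -0.19 ± 0.09 and 0.11 ± 0.08. A total of 74 members were called lower in both genotypes.

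**Figure D3:**
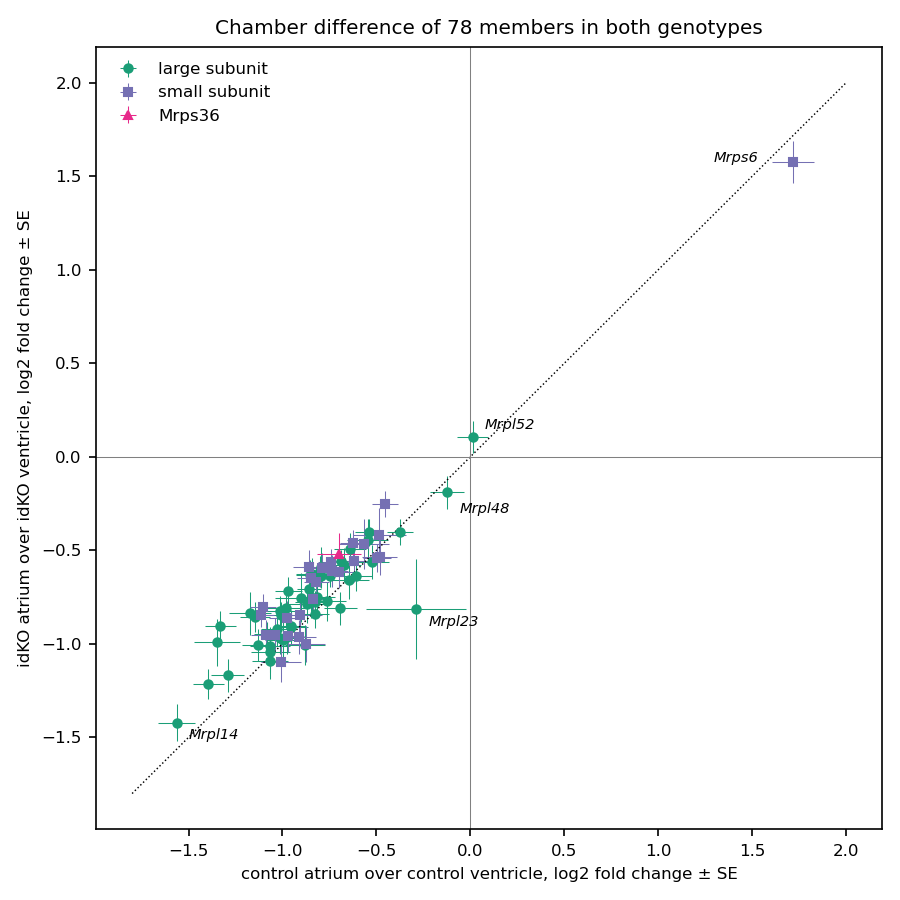
Atrium over ventricle log2 fold change of the 78 members in idKO mice (vertical axis) and in control mice (horizontal axis), with SE bars; circles are large-subunit members, squares small-subunit members and the triangle is Mrps36, and the dotted line marks equal values. Most members lie between -1.5 and -0.3 on both axes, Mrpl52 and Mrpl48 lie near 0, and Mrps6 stands alone at the upper right; the axes rest on different libraries.

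Mouse by mouse, as normalised counts, between 75 and 77 of the 78 members were lower in the atrium than in the ventricle. In all 8 mice 74 members were lower. Members whose atria all lay below the ventricles, as counted above, must be lower in each mouse, so these counts are no further support. Mrpl48 and Mrpl23 were lower in 7 mice, Mrpl52 in 3 and Mrps6 in 0. Summed over the 78 members, the level was 3222 ± 106 in idKO atria, 3284 ± 171 in control atria, 5290 ± 198 in idKO ventricles and 5832 ± 392 in control ventricles (SD, n = 4 each). The sum in the atrium was 0.601 to 0.617 of that in the ventricle of the same idKO mouse and 0.543 to 0.598 in control mice.

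The size of the chamber difference depends on the scale. The authors' estimated library sizes are a smaller part of the reads in ventricles than in atria, so the same reads give a higher normalised count in ventricles. When values were instead given as a share of all reads in genes, the median of all genes moved to 0.44 in idKO mice and 0.50 in control mice on the log2 scale. With that, 61.5% of all genes were called higher and 10.3% lower in idKO atria, and 65.8% higher and 9.25% lower in control atria. On that scale 47 members were lower and 4 higher in idKO atria, and 54 lower and 4 higher in control atria, with a median of -0.29 in each. Relative to the median of all genes the members lay at -0.73 in idKO and -0.79 in control mice. As a share of reads in nuclear genes, 67 members were lower and 2 higher in idKO atria (median -0.51, against 0.25 over all genes). In control atria 70 were lower and 2 higher (median -0.55, against 0.29), against 15.2% of all genes lower and 48.2% higher. Mrps6 was higher on each of the 3 scales in both genotypes, and Mrpl52 on both share scales, at 0.57 in idKO and 0.55 in control mice as a share of all reads. Mrpl48 in both genotypes, Mrps25 in idKO mice and Mrpl24 in control mice were called higher as a share of all reads, with log2 fold changes of 0.18 to 0.43, although as normalised counts Mrps25 and Mrpl24 were called lower. Mrps12 changed sign on that scale in both genotypes, to 0.05 in idKO and 0.06 in control mice, and Mrpl17 in control mice, to 0.03. These are examples, as 12 of 78 members lay above 0 in control mice on that scale, against 2 as normalised counts. On the opposite strand Mrps25 shares 4590 exon bases with Nr2c2, Mrpl24 594 with Rrnad1 and Mrpl48 708 with Rab6a. As normalised counts Nr2c2 averaged 34.8 in idKO atria and 23.4 in idKO ventricles. Rrnad1 averaged 13.2 in control atria and 10.4 in control ventricles. The part of shared bases in these calls was not tested. The 78 members took 0.309%, 0.310%, 0.363% and 0.372% of all reads in idKO atria, control atria, idKO ventricles and control ventricles.

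**Figure D4:**
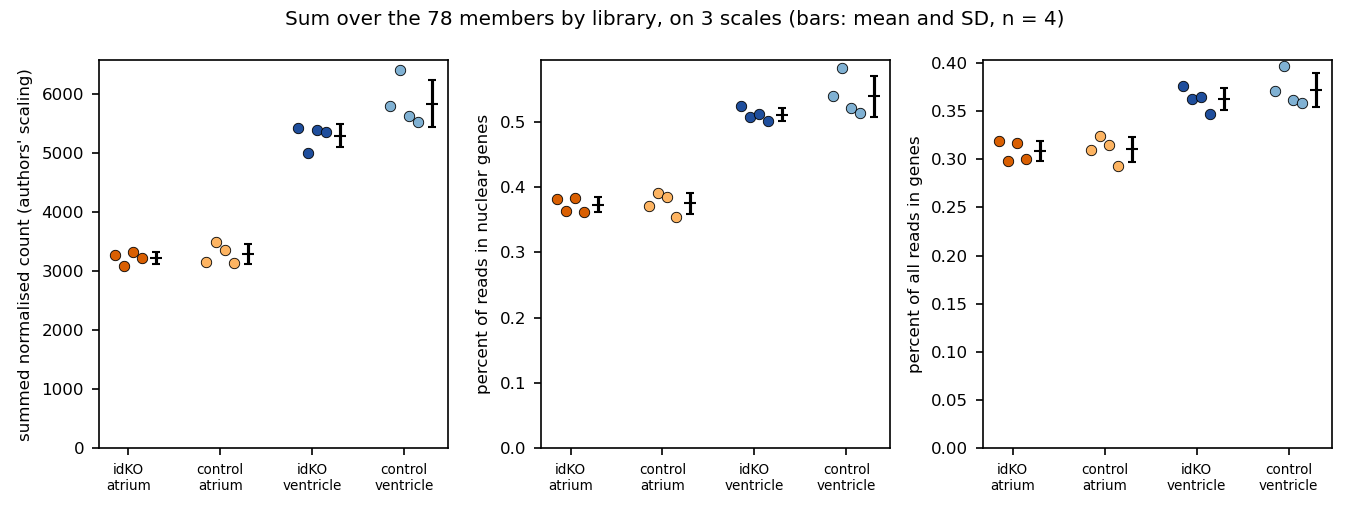
Sum over the 78 members in each library on 3 scales, as normalised counts, as percent of reads in nuclear genes and as percent of all reads in genes; points are libraries of the 4 groups and bars give the mean and SD (n = 4). Atria lie below ventricles on each scale, with the smallest gap as percent of all reads (0.310% in control atria and 0.372% in control ventricles).

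Genes that work with the mitoribosome are given next as normalised counts, and most were lower in atria on that scale. All 5 subunits without an Mrp name were lower in control atria, led by Ptcd3 at -1.16 ± 0.06 and Dap3 at -0.81 ± 0.06. Of 13 translation factors 12 were lower, among them the elongation factors Gfm1 at -0.999 ± 0.06 and Tufm at -0.996 ± 0.08 and the initiation factor Mtif2 at -0.81 ± 0.07. Among 28 factors that assemble or process the ribosome 21 were lower and 1 was higher, with the protease subunit Afg3l2 at -1.06 ± 0.06 and the rRNA methyltransferase Mrm3 at -1.62 ± 0.14. Of 20 mitochondrial aminoacyl-tRNA synthetase and amidotransferase genes 18 were lower, and of 20 factors of mitochondrial DNA and RNA 17 were lower, led by Lrpprc, which stabilises mitochondrial mRNAs, at -1.52 ± 0.05. Among 12 regulators of mitochondrial biogenesis 6 were lower, including Esrrb at -1.17 ± 0.09 and Esrra at -0.62 ± 0.08, and Nrf1 was higher at 0.31. As a share of all reads the biogenesis regulators went the other way, and the ranges of the assembly factors and of the synthetase genes overlapped. The synthetase genes summed to 0.0674% to 0.108% of all reads in control atria, against 0.0767% to 0.115% in control ventricles. Regulators of biogenesis summed to 0.0434% to 0.0488% of all reads in control atria, above the 0.0390% to 0.0432% in control ventricles, and the assembly factors to 0.0711% to 0.0746% in control atria, against 0.0740% to 0.0752% in control ventricles. The translation factors were below on that scale too, at 0.0554% to 0.0627% in control atria, against 0.0700% to 0.0759% in control ventricles.

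The products and partners of mitochondrial translation were lower as well. All 13 proteins of mitochondrial DNA were lower in control atria, with a median of -1.38, and 67 of 68 nuclear respiratory chain subunits, with a median of -1.003. Of 79 cytosolic ribosomal proteins 24 were lower, 6 were higher, and the median was -0.09. Their sum had the opposite direction as a share of all reads, at 1.497% to 1.69% in control atria, against 1.13% to 1.19% in control ventricles. The summed level of the mitoribosome was 17.7% of that of cytosolic ribosomal proteins in idKO atria and 19.3% in control atria, against 28.1% in idKO ventricles and 31.9% in control ventricles. Set against the nuclear respiratory chain it was 10.5% ± 0.111 in idKO atria and 10.4% ± 0.304 in control atria, and 9.50% ± 0.185 in idKO ventricles and 9.25% ± 0.420 in control ventricles (SD, n = 4 each).

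Markers of cell types differed between chambers beside these genes. Of 10 cardiomyocyte markers 8 were lower in control atria, with a median of -0.79, and all 10 fibroblast markers were higher, with a median of 0.95. The cardiomyocyte markers summed to 58417 to 67077 in idKO atria, 60014 to 70002 in control atria, 90638 to 102900 in idKO ventricles and 101971 to 107502 in control ventricles. Fibroblast markers summed to 4952 to 6364, 4267 to 5969, 2481 to 3813 and 2381 to 2723 in the same 4 groups. All 7 lymphocyte markers were higher in control atria, where they summed to 156 to 704, against 18.1 to 25.2 in control ventricles. Of the other lists, endothelial markers had 4 higher and 5 lower of 10, smooth muscle and pericyte markers 3 higher and 4 lower, macrophage markers 3 higher and adipocyte markers 7 higher and 1 lower. As a share of all reads, the cardiomyocyte markers summed to 5.92% to 6.53% in control atria, against 6.53% to 6.92% in control ventricles, the fibroblast markers to 0.398% to 0.589%, against 0.148% to 0.174%, and the endothelial markers to 0.133% to 0.168%, against 0.106% to 0.112%. The part of these markers in the result was not tested. Relative to the cardiomyocyte markers, the members summed to 5.20% ± 0.307 in idKO atria and 4.997% ± 0.352 in control atria, against 5.34% ± 0.133 in idKO ventricles and 5.60% ± 0.370 in control ventricles.

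The comparison of genotypes asked whether losing Meis1 and Meis2 in cardiomyocytes changed these genes. In ventricles 3 of 78 members fell in idKO mice and none rose (limma adjusted p under 0.05 over 13808 genes), against 1.46% of all genes lower and 0.492% higher. The median log2 fold change of the members, idKO over control, was -0.13, against -0.01 over all genes, and 68 of 78 were below 0 and 10 above, against 51.8% and 48.2% of all genes. In 18 members all 4 idKO ventricles lay below all 4 control ventricles, against 5.62% of all genes. At an unadjusted p under 0.05 there were 27 members, against 14.6% of all genes.

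Mrpl39 (ENSMUSG00000022889, chr16:84717576-84735742, − strand, GRCm38) had the largest fall. It measured 83.7, 74.6, 81.7 and 84.9 normalised counts in idKO ventricles, against 118, 106, 106 and 104 in control ventricles. The 2 groups did not overlap, and the lowest control ventricle stood well above the highest idKO one. The log2 fold change was -0.41 ± 0.07 (limma adjusted p = 0.00603), and it passed the test on each of the 3 scales and without any single library. Without a trend of the variance with level in limma no member passed, Mrpl39 included (limma adjusted p = 0.0635), and over 21 alternatives its adjusted p ranged between 8.99e-06 and 0.0635.

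Mrps35 (ENSMUSG00000040112, chr6:147042764-147073991, + strand), a small-subunit protein without a bacterial counterpart, measured 81.3, 84.2, 75.8 and 86.0 in idKO ventricles, against 105, 106, 98.9 and 95.1 in control ventricles. Mrpl2 (ENSMUSG00000002767, chr17:46646229-46650139, + strand), a conserved protein beside the centre where peptide bonds form, measured 82.9, 76.6, 81.3 and 84.9 in idKO ventricles, against 94.1, 111, 99.0 and 96.3 in control ventricles. In neither gene did the groups overlap. The log2 fold change was -0.30 ± 0.07 for Mrps35 (limma adjusted p = 0.031) and -0.29 ± 0.07 for Mrpl2 (limma adjusted p = 0.047). As a share of all reads in genes neither passed, at -0.20 (limma adjusted p = 0.145) and -0.19 (limma adjusted p = 0.137), and without any one of the ventricle libraries except idKO replicate 4 only Mrpl39 passed. By DESeq2 on the recovered reads 6 members were lower, these 3 with Mrpl16, Mrpl50 and Mrpl51. By edgeR the same 3 as here were lower, and by limma voom Mrpl39 and Mrps35. Of all genes 2.48% were lower by DESeq2, 1.34% by edgeR and 1.39% by limma voom.

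The next member by p, Mrpl51, measured 169, 141, 175 and 169 in idKO ventricles, against 195, 207, 184 and 200 in control ventricles, with a log2 fold change of -0.27 ± 0.07 that did not pass (limma adjusted p = 0.0871). Mrpl23 was the 1 member whose idKO ventricles all lay above the control ventricles, a pattern found in 3.17% of all genes. It measured 9.60, 6.99, 8.06 and 6.24 in idKO ventricles, against 5.92, 3.86, 5.89 and 4.63 in control ventricles, and its log2 fold change of 0.52 ± 0.17 did not pass (limma adjusted p = 0.158). Among members named for their role, the cardiomyopathy genes Mrpl3, Mrpl44, Mrps14 and Mrps22 lay between -0.17 and -0.03, and none passed. The stalk protein Mrpl10 stood at 0.00 ± 0.06 and Mrpl12 at -0.13 ± 0.07. Large-subunit members had a median of -0.14 and small-subunit members a median of -0.11. The summed levels were 3683 in idKO and 4086 in control ventricles for the large subunit, and 1520 in idKO and 1655 in control ventricles for the small one.

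**Figure D5:**
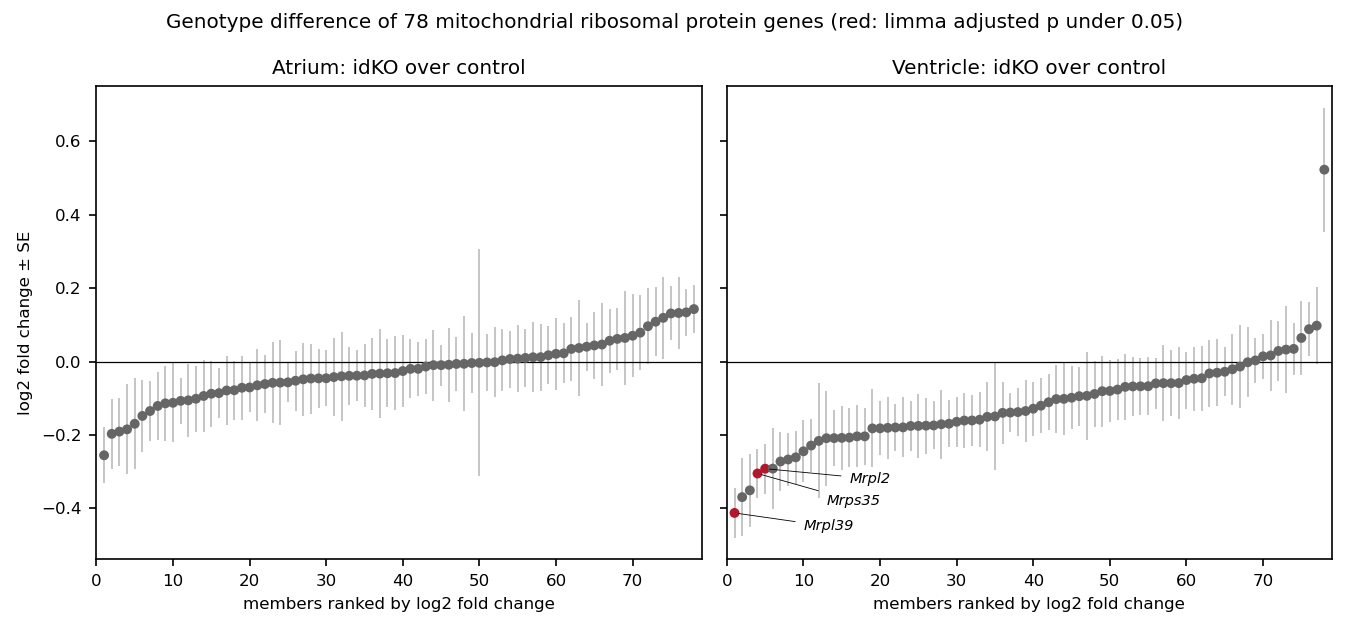
Log2 fold change of idKO over control for the 78 members, ranked within each chamber, with SE bars, in atria (left) and ventricles (right); red points passed limma at adjusted p under 0.05. In atria the points centre on a median of -0.03, and in ventricles most lie below 0 with Mrpl39, Mrps35 and Mrpl2 in red and Mrpl23 at the far right at 0.52.

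Individual mice differed across the whole list. In control mouse 2, 69 of 78 members in the ventricle and 67 of 78 in the atrium lay above the control mean of that chamber. In idKO mouse 2, 72 of 78 in the ventricle and 57 of 78 in the atrium lay below it. Members below that mean numbered 61, 56 and 64 in idKO ventricles 1, 3 and 4, and 40, 61 and 64 in control ventricles 1, 3 and 4. In atria 1, 3 and 4 they numbered 37, 35 and 46 in idKO mice, and 58, 29 and 56 in control mice. The summed level was 5421, 4995, 5386 and 5356 in idKO ventricles, against 5798, 6394, 5618 and 5518 in control ventricles, and the groups did not overlap on this scale. They overlapped as a share of all reads, at 0.347% to 0.376% in idKO and 0.358% to 0.397% in control ventricles, and as a share of nuclear reads, at 0.501% to 0.523% in idKO and 0.513% to 0.582% in control ventricles. Without control ventricle 2 the median log2 fold change of the members was -0.08, with 20 members above 0, and without idKO ventricle 2 it was -0.09. As a share of all reads the median was -0.03, against 0.09 over all genes, with 34 members above 0. In idKO mouse 2 the fibroblast markers had the highest sum of each idKO group, 6364 in the atrium and 3813 in the ventricle, and the cardiomyocyte markers the lowest, 58417 and 90638. The part of these markers in the result was not tested.

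Other gene groups in ventricles stood as follows. None of the 5 subunits without an Mrp name, 13 translation factors, 28 assembly factors, 20 synthetase genes, 20 factors of mitochondrial DNA and RNA and 12 biogenesis regulators passed the test. Of 68 nuclear respiratory chain subunits 3 were lower in idKO ventricles, and all 68 were below 0, with a median of -0.18. Ndufs6, which shares 30 exon bases with Mrpl36, was 1 of them, at 319 ± 9.32 in idKO and 383 ± 19.6 in control ventricles. None of 13 proteins of mitochondrial DNA passed, with a median of -0.19. None of 79 cytosolic ribosomal proteins passed, with a median of 0.06. Among cardiomyocyte markers Ryr2 was lower, at -0.66, and among macrophage markers Lyz2 was higher, at 0.37. The 10 macrophage markers summed to 431 to 518 in idKO ventricles, against 381 to 393 in control ventricles, with no overlap, and as a share of all reads to 0.0292% to 0.0376% in idKO, against 0.0242% to 0.0255% in control ventricles. Of these 10 markers 8 were above 0, with a median of 0.21, and their part in the fall of the members was not tested. Fibroblast markers had 9 of 10 above 0 with a median of 0.22, and none passed.

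In atria no member passed the test between idKO and control mice (limma, over 14598 genes, of which 0.0206% were higher and 0% lower). DESeq2, edgeR and limma voom on the recovered reads also called 0, and 1 member had an unadjusted p under 0.05, against 4.60% of all genes. That member, Mrpl16, a conserved protein of the large subunit, measured 35.7, 33.3, 40.4 and 34.6 in idKO atria, against 41.6, 45.5, 42.2 and 43.1 in control atria. The libraries did not overlap (idKO below control in 1.29% of all genes, above it in 1.51%), and the log2 fold change was -0.26 ± 0.08 (limma adjusted p = 0.966). The next by p were Mrpl33 at 0.14 ± 0.07, Mrpl1 at -0.20 ± 0.09 and Mrps25 at 0.13 ± 0.06. The median of the members was -0.03, against -0.00043 over all genes, with 52 below 0 and 26 above, against 50.1% and 49.9% of all genes. Without idKO atrium 2, 38 members were below 0, and without control atrium 2, 37 were. Meis2 itself did not pass the test in these atria, as given above.

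The difference between the 2 genotype effects, atrium minus ventricle, was tested over all 16 libraries. No member passed (limma, over 15075 genes, of which 0.272% were higher and 0.0265% lower), and DESeq2, edgeR and limma voom called 0 as well. With the mouse as a fixed-effect block no member passed either, while 80 of all genes were higher and 23 lower, against 41 and 4 without the block. At an unadjusted p under 0.05 there were 6 members, against 6.51% of all genes. The smallest p was that of Mrpl39, with a difference of 0.42 ± 0.12 (limma adjusted p = 0.255), from effects of 0.01 ± 0.10 in atria and -0.41 ± 0.07 in ventricles. Without idKO mouse 1 it was 0.53 (limma adjusted p = 0.0455). Mrps35 differed by 0.30 ± 0.10 (limma adjusted p = 0.432), Mrpl37 by 0.29 ± 0.11 and Mrps7 by 0.27 ± 0.09. Of 78 members 61 had a difference above 0 and 17 below, against 52.2% and 47.8% of all genes, with a median of 0.10 against 0.01, and as a share of all reads the median was 0.02 against -0.06.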

How the data were processed

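Gene expression was measured in 16 libraries, per the labels' protocols 60-base single reads from 20 ng of total RNA (NEBNext Ultra kit, HiSeq2500). Reads were processed with cutadapt and RSEM 1.3.1 on GRCm38, per the submitters' processing notes. The authors deposited 1 table of normalised counts, a signal of the form (reads + 0.5) divided by an estimated library size in M (mega) reads. Every deposited value gave back a whole number of reads within 0.01 (100% of values), and those recovered reads served the count tests. The sources used here do not name the normalisation tool, the strand setting or the treatment of reads shared by several genes.

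From these values limma 3.58.1 (R 4.3.3) was fitted with a trended prior to log2(value + 1) for genes with at least 4 libraries at 1 or more, two-sided, with Benjamini-Hochberg adjustment over all genes tested and a threshold of 0.05. Genotype was tested within each chamber, chambers and the difference of genotype effects over all 16 libraries. Alternatives were pseudocounts of 0.5 and 2, other filters, scaling to the share of all or of nuclear reads, median-ratio size factors, limma without trend, limma voom, edgeR 4.0.16, DESeq2 1.42.0, joint fits, the mouse as a block, and leaving out each library. The fits were tested on simulated data.

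Atrium and ventricle of 1 mouse share a number in the sample titles. Deviations of the 2 chambers of a mouse from their group means correlated at 0.175 to 0.296, and 8 of 8 mice matched best with themselves, so the numbers pair the libraries. No 2 replicates agreed within sampling noise (mean chi-square per gene 7.77 to 16.1). Members and gene lists were chosen with earlier results of these data known. Named were called members (at most 12, otherwise the 8 with the largest change in a direction), the 4 with the smallest p in each comparison, the 5 highest and 5 lowest per kilobase, and members chosen for their role. Gene positions came from GENCODE (GRCm38) and promoter windows from RefSeq (GRCm38.p6). Promoter windows of 69 of the 78 members were matched by symbol.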

Additional observations from a re-analysis of the deposited data

Results flagged for a closer look

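In groups of 4 libraries, 7 of 176 sets of values had 1 library far from the other 3, where chance gives about 1 in 20. Mrpl1, of the L1 stalk, stood at 25.5 in idKO atrium 3, against 20.0 to 20.9 in the other idKO atria. Mrpl46, of the central protuberance, stood at 23.8 in idKO atrium 1, against 16.1 to 17.2, and at 50.4 in control ventricle 2, against 42.0 to 43.4. Mrpl17, at the exit tunnel, stood at 56.0 in idKO ventricle 4, against 48.6 to 49.5. Mrpl3, beside the peptidyl transferase centre, stood at 59.6 in control atrium 1, against 72.7 to 74.2. Mrps23, a small-subunit protein, stood at 121 in control atrium 2, against 94.2 to 96.6. The sum over the 78 members was 4995 in idKO ventricle 2, against 5356 to 5421 in the other idKO ventricles. No member moved in opposite directions with genotype in every library of the 2 chambers (0 of 78).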

How the results depend on the processing

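For idKO against control ventricles, 3 members were called lower as reported, 1 under scaling to the share of all reads, 1 under the share of nuclear reads, 0 without a trended prior, 6 by DESeq2, 5 in the joint fit of all 16 libraries, 5 in that fit with the mouse as a replicate block, and 1 to 3 when a library was left out. Of all genes, 1.46% were lower as reported, 0.804% as a share of all reads and 1.03% as a share of nuclear reads. The percentage was 0.435% without a trended prior, 2.48% by DESeq2, 1.61% in the joint fit and 1.69% with the block. The cause of the differences between settings was not tested. The median went to -0.029 as a share of all reads. For the difference of genotype effects that scaling gave a median of 0.020, and leaving out a replicate gave 0 to 1 members higher (1 without idKO replicate 1). Between control chambers the higher calls were 4 (share of all reads) and 2 (share of nuclear reads), and the medians -0.29 and -0.55. Between idKO chambers they were 4 and 2, with 47 lower on the first scale and medians of -0.29 and -0.51. As a share of all reads Mrps12 went to 0.045 in idKO and 0.061 in control mice, and Mrpl17 to 0.032 in control mice. On that scale 12 members lay above 0 in control mice, against 2 as reported. The replicate block changed no other count of members by over 1.5 times, and the 5 in ventricles came without the block too. Over all genes, the difference of effects had 80 higher and 23 lower calls with the mouse as a fixed effect and 55 and 17 as a random effect, against 41 and 4.

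Of the members named, all alternatives kept the call, and the sign where a member was called, for 23 of 27 in ventricles, 26 of 26 in atria, 26 of 27 for the difference of effects, 20 of 29 between idKO chambers and 25 of 32 between control chambers. Mrpl23 averaged 4.08 to 7.72 normalised counts by group, the lowest level per kilobase of the 78 members.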

Other observations

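Within the mitoribosome, the summed level of the large-subunit members was 219% ± 8.64 of that of the small-subunit members in idKO atria and 224% ± 3.57 in control atria, against 242% ± 8.60 in idKO ventricles and 247% ± 4.43 in control ventricles (SD, n = 4 each). With Mrps6 left out of the small-subunit sum, the values were 243% ± 5.09 in idKO atria and 249% ± 1.95 in control atria, against 247% ± 8.26 in idKO ventricles and 251% ± 4.84 in control ventricles, so most of the gap between chambers came with Mrps6. Relative to the 13 proteins of mitochondrial DNA, the members summed to 1.84% ± 0.113 in idKO atria and 1.85% ± 0.119 in control atria, against 1.29% ± 0.0841 in idKO ventricles and 1.23% ± 0.0337 in control ventricles.

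Among cytosolic ribosomal proteins Rpl3l, a form of Rpl3 found in striated muscle, averaged 19.7 ± 2.96 normalised counts in idKO atria, against 352 ± 25.8 in idKO ventricles, and 18.8 ± 2.91 in control atria, against 396 ± 7.28 in control ventricles (SD, n = 4 each). Its log2 fold change, atrium over ventricle, was -4.11 ± 0.10 in idKO mice (limma adjusted p = 2.62e-16) and -4.34 ± 0.10 in control mice (limma adjusted p = 9.63e-17). Mrps12 stood at 48.3 in control ventricle 1 and at 25.5 to 30.1 in the other control ventricles.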
